A study of Mus musculus with 3 samples.

Results

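Small nucleolar RNAs (snoRNAs) and their Cajal body relatives (scaRNAs) were examined in the cytosolic RNA of mouse macrophages. The annotation used by the deposited tables holds 1558 genes with a transcript of type snoRNA or scaRNA, 1507 of type snoRNA and 51 of type scaRNA, among 55536 genes. The genes described here were chosen by a measured value, a mean expected count of at least 10 over the 3 gene tables, and 31 of the 1558 (1.99%) reached it. An expected count is the number of reads a quantifier assigns to a gene, and it need not be whole. The 31 identifiers stand at 26 loci, because the U3 genes are annotated as 10 identifiers at 5 loci.

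All 3 libraries belong to 1 group, numbered by the labels as replicates 1, 2 and 3. Bone marrow-derived macrophages of C57BL/6J mice received Lipid A, the immune-stimulating part of bacterial lipopolysaccharide, at 100 ng/ml for 12 h, were kept without it for 12 h, and received 100 ng/ml again for 50 min. RNA came from the cytosolic fraction, was depleted of ribosomal RNA and sequenced as total RNA from 1 µg, with a labelled size range of 250 to 400 bases. No untreated or nuclear library was analysed here, the sources used here give no age or sex of the mice, and the labels give 1 strain-level donor entry for all libraries. The spread between replicates, which may be technical, is therefore the only variation that could be measured.

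snoRNAs are short non-coding RNAs of the nucleolus. Box C/D snoRNAs, named for the C and D boxes near their ends, guide ribose methylation, and box H/ACA snoRNAs, named for a hinge box and a 3′ ACA, guide conversion of uridine to pseudouridine, mostly in ribosomal RNA. scaRNAs carry the same boxes, reside in Cajal bodies and guide the same modifications in the small nuclear RNAs of the spliceosome. A few, such as U3 and U17, take part in the cleavage of the ribosomal RNA precursor. In mammals most snoRNAs are cut out of the introns of host genes, while U3 is transcribed from promoters of its own. The mature particles work in the nucleus.

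The sequences below are those of the members whose counts, copies or host genes carry the results that follow, and they come from the GENCODE M21 transcripts (mm10), which match the deposited tables. In the first group capitals mark an H box (ANANNA) found at 35 to 65% of the length and the ACA near the 3′ end. Scarna13 has the ACA but no H box in that window. Snora73a and Snora73b, which are the U17 RNAs, lie at chr4:132352775-132352979 and chr4:132352322-132352526, both on the minus strand. Gm26448 lies at chr9:120129351-120129553 on the plus strand, and Scarna13 at chr12:105031075-105031349 on the minus strand.
Snora73a: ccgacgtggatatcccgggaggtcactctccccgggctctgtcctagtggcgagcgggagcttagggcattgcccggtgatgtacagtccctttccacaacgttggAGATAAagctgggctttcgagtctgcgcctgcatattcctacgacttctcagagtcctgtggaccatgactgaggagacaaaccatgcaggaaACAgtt
Snora73b: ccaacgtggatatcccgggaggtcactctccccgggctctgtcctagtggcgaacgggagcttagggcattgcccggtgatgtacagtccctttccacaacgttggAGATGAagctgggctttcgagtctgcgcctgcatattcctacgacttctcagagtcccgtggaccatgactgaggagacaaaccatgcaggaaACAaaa
Gm26448: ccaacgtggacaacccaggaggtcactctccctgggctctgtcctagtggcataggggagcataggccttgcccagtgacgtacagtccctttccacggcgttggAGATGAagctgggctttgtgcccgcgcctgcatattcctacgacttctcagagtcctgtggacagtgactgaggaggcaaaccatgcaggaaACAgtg
Scarna13: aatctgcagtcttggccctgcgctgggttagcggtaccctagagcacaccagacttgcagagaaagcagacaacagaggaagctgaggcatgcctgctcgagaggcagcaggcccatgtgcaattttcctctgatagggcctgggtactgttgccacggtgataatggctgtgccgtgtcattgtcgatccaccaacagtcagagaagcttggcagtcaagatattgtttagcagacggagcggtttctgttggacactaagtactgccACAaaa

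The second group has capitals on the C box (TGATGA) and on the D box (CTGA) in the last 15 bases. Gm25395 (chr1:87776938-87777209) and Scarna6 (chr1:87784556-87784820) lie on the plus strand within 1 host gene. Snord17 lies at chr2:144265979-144266216 on the minus strand and Snord22 at chr19:8725866-8725991 on the plus strand. U3 is shown by the 216-base Rnu3b1 entry (chr11:87443237-87443452, plus strand) and the 214-base Rnu3a entry (chr10:40258467-40258680, plus strand).
Gm25395: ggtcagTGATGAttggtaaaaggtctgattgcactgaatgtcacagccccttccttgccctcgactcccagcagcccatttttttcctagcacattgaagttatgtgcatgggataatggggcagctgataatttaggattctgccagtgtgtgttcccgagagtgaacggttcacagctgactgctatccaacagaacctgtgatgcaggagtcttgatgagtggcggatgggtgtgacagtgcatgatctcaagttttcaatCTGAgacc
Scarna6: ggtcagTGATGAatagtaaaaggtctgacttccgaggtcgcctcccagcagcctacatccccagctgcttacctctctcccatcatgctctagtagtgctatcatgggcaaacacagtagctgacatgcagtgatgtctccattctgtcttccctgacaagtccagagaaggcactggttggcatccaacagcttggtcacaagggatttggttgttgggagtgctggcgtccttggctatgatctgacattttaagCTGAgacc
Snord17: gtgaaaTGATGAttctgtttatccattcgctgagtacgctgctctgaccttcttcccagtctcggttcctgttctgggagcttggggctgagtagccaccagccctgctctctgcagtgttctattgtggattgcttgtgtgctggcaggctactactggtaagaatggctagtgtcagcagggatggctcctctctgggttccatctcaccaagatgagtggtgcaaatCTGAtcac
Snord22: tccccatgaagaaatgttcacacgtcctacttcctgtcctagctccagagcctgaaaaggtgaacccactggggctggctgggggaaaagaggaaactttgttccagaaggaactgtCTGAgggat
Rnu3b1: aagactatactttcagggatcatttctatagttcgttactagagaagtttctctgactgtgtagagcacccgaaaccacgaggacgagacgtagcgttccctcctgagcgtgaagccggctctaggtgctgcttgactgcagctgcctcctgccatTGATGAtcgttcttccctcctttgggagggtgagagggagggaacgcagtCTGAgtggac
Rnu3a: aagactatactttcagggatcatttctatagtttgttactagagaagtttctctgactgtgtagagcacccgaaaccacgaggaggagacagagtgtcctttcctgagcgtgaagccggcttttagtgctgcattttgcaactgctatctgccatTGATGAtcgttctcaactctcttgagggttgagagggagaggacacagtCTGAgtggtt

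Length separated the detected from the undetected genes. No gene of 110 bases or less reached the threshold, although 55 genes of up to 70 bases, 297 of 71 to 90 bases and 158 of 91 to 110 bases are annotated. Among genes of 111 to 130 bases 2 of 449 passed, among those of 131 to 150 bases 5 of 535, and among those of 151 to 200 bases 3 of 26. The share then rose to 14 of 27 genes (51.9%) at 201 to 250 bases and 7 of 11 (63.6%) above 250 bases. Of those 14 genes, 10 were the U3 entries of 213 to 216 bases, which are annotated more than once per locus. The rest were Snora73a, Snora73b, Snord17 and Gm26448. The shortest member was Snord22 with 126 bases, the longest Scarna2 with 414, and the median was 215. The deposited effective length, the number of positions at which a fragment could start, was 0 for 890, 729 and 617 of the 1558 genes in replicates 1, 2 and 3. At an effective length of 0 no TPM can be formed, so a value of 0 for such a gene is no measure of its level in the cell.

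**Figure D1:**
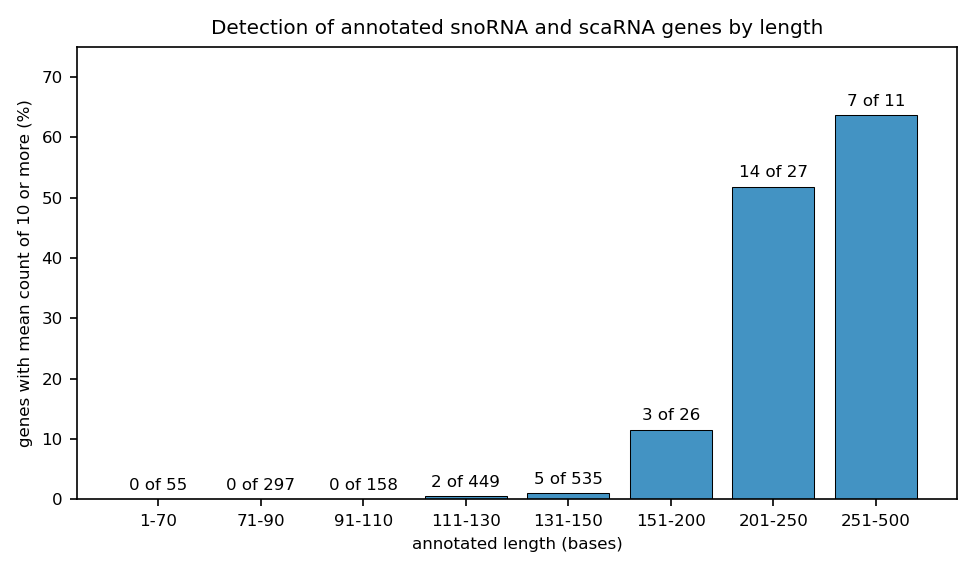
Share of annotated snoRNA and scaRNA genes with a mean expected count of at least 10 (y axis, percent) by annotated length (x axis, bases), with the number of genes above each bar. The share was 0 in the 3 shortest classes and 63.6% in the longest. The class of 201 to 250 bases includes the 10 U3 entries, which are annotated more than once per locus.

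Of all 1558 genes, 74 had any count and 1484 had none. By symbol, 14 of 108 box C/D genes were members, made up of 4 of 98 Snord genes and 10 of 10 Rnu3 entries. So were 3 of 42 box H/ACA genes (Snora), 4 of 9 Scarna genes and 10 of 1399 genes with other names, mostly predicted Gm genes. Just inside the threshold stood Gm25835, Gm26083, the 213-base Rnu3a entry, Snord15b and Gm26447, with mean counts of 11.7, 12.4, 14.7, 15.2 and 16.0. Just outside it stood Gm24119 with 8, Gm26397 with 5, Gm22486 with 4, and Gm23119 and Gm25394 with 2.67 each. The 5 Scarna genes that were not members (Scarna3a, Scarna3b, Scarna8, Scarna9 and Scarna17) had mean counts of 0 or 1. U8 (Snord118) had a mean of 0.333, and U13 (Snord13) and the U14 genes (Snord14a, Snord14c, Snord14d and Snord14e) were listed at 0.

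Levels are given as CPM, expected counts scaled by library size after TMM normalization. Total expected counts over genes were 47972062, 54409436 and 53491957 in replicates 1 to 3. All members together took 0.0212% of the counts in replicate 1, 0.0114% in replicate 2 and 0.00718% in replicate 3, and the 95% Wilson intervals, which cover counting error only, ran from 0.0208 to 0.0216%, 0.0112 to 0.0117% and 0.00696 to 0.00742%. Deposited TPM was not used for levels, because it was listed as 0 despite counts for Snord22 and Gm26447 in replicate 1 and for Snord22 in replicate 2.

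The Cajal body RNAs held most of these counts. They are 7 genes: Gm22009, Scarna2, Gm25395, Scarna13, Scarna6 and Gm26083, which are of type scaRNA, and Scarna10, which carries a Scarna symbol but is annotated as snoRNA. Their summed level was 176 CPM in replicate 1, 93.6 in replicate 2 and 61.1 in replicate 3. Gm22009, 343 bases long with a C box at position 7 and a D box at position 335, alone held 55.0% of the counts of all 31 members. Its expected counts were 5350, 3418 and 2363 in replicates 1, 2 and 3, or 71.9 ± 31.3 CPM (SD, n = 3). Replicate 1 was the highest and replicate 3 the lowest, a 2.30-fold range on the scale of CPM + 0.5.

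Scarna10, 325 bases long with C and D boxes, had 1966, 826 and 358 counts. Its level was 20.5 ± 16.8 CPM (SD, n = 3), and replicate 1 exceeded replicate 3 by 5.31-fold, the widest range among members with a mean count of at least 50. Scarna2, the only Cajal body RNA outside any host gene, had 1099, 593 and 311 counts. Its level was 13.0 ± 8.13 CPM (SD, n = 3) with a 3.42-fold range. In Gm22009, Scarna10 and Scarna2 alike replicate 1 was the highest, replicate 2 lay between and replicate 3 was the lowest.

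The other 4 were lower. Gm25395 had 178, 113 and 40 counts and Scarna13, which has an ACA near its 3′ end, 154, 71 and 46. Scarna6 had 86, 47 and 7 counts, and replicate 3 lay far below the others. Gm26083 had 13.6, 14.8 and 8.89 counts, and its replicates could not be told apart by counting noise (adjusted p = 0.524, Poisson heterogeneity test with Benjamini-Hochberg adjustment over all genes tested). That test compares the 3 counts of a gene with equal shares of the scaled library sizes. The other 6 Cajal body RNAs differed between replicates beyond counting noise, with adjusted p of 6.05e-17 for Scarna13 and 2.39e-15 for Scarna6 by the same test. Without replicate 1 the call of Scarna13 was lost (adjusted p = 0.0799, same test).

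U17 RNA is needed for the processing of small-subunit ribosomal RNA and was detected from both of its genes. Snora73b had 208, 164 and 40.7 counts and Snora73a 182, 95.7 and 40.8 counts in replicates 1, 2 and 3. Their levels were 2.65 ± 1.71 and 2.06 ± 1.45 CPM (SD, n = 3), and both were called as varying (adjusted p = 3.82e-24 and 3.44e-22 by the Poisson heterogeneity test). As a sum, U17 stood at 7.79, 4.78 and 1.59 CPM, 4.90-fold higher in replicate 1 than in replicate 3. Folds of such sums are plain ratios of CPM. The pair share 96.6% of their bases over 205 positions with 7 mismatches, and the posterior SD of each count was at most 0.890, small beside the counts. Reads over either gene could also come from Gm17300, an antisense gene over both, since no strand setting is stated in the labels or files. Gm26448, which lies in an intron of the ribosomal protein gene Rpsa, shares 88.3% of its aligned bases with Snora73a and 87.8% with Snora73b. It had 29, 16 and 3 counts, the same order of replicates as the U17 pair.

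The remaining 12 members outside U3 summed to 13.1, 9.20 and 6.63 CPM. Gm23547, 271 bases long with C and D boxes, was the highest of them, with 194, 127 and 130 counts (2.91 ± 0.831 CPM, SD, n = 3). Snord17, a box C/D guide of ribosomal RNA, had 93, 65 and 17 counts and a 2.83-fold range. Snord15a and Snord15b, a box C/D pair within Rps3, had 24, 17 and 8 counts and 26.9, 13.9 and 4.89 counts. Snora74a, the third Snora member, had 41.7, 16.8 and 11.0 counts, and Gm26447 had 22.9, 16.99 and 7.98. In these genes replicate 1 was the highest, and in all but Gm23547 replicate 3 was the lowest.

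Among the others, Gm23262, Snord22 and Gm25776 were not highest in replicate 1 by CPM. Gm23262 had 68.2, 93.5 and 81.9 counts, the narrowest range among members with a mean count of at least 50 (1.19-fold), and was not called (adjusted p = 0.382 by the Poisson heterogeneity test). Snord22, the U22 RNA, which takes part in the processing of small-subunit ribosomal RNA, had 21.95, 40.98 and 34.96 counts and was not called (adjusted p = 0.137, same test). Both were lowest in replicate 1 by CPM. Gm25776 had 28, 46 and 20 counts and was highest in replicate 2 by CPM (adjusted p = 0.0147, same test). That call was lost without replicate 2 (adjusted p = 0.304, same test) and without replicate 3 (adjusted p = 0.137, same test). The order depended on the measure, since effective lengths differed between replicates, at 7.99, 9.22 and 13.1 for Gm23262. By deposited TPM replicate 1 was the highest for Gm23262 (119.9, 99.4 and 89.6) and for Gm25776 (153, 142 and 61.3). Gm22988 and Gm25835 both lie within Eif4a1, and their counts were 89.4, 35.7 and 13.8 against 16, 11 and 8. Only Gm22988 was called, with adjusted p = 4.71e-15 against 0.245 for Gm25835 in the same test, and the difference between the pair was not tested.

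**Figure D2:**
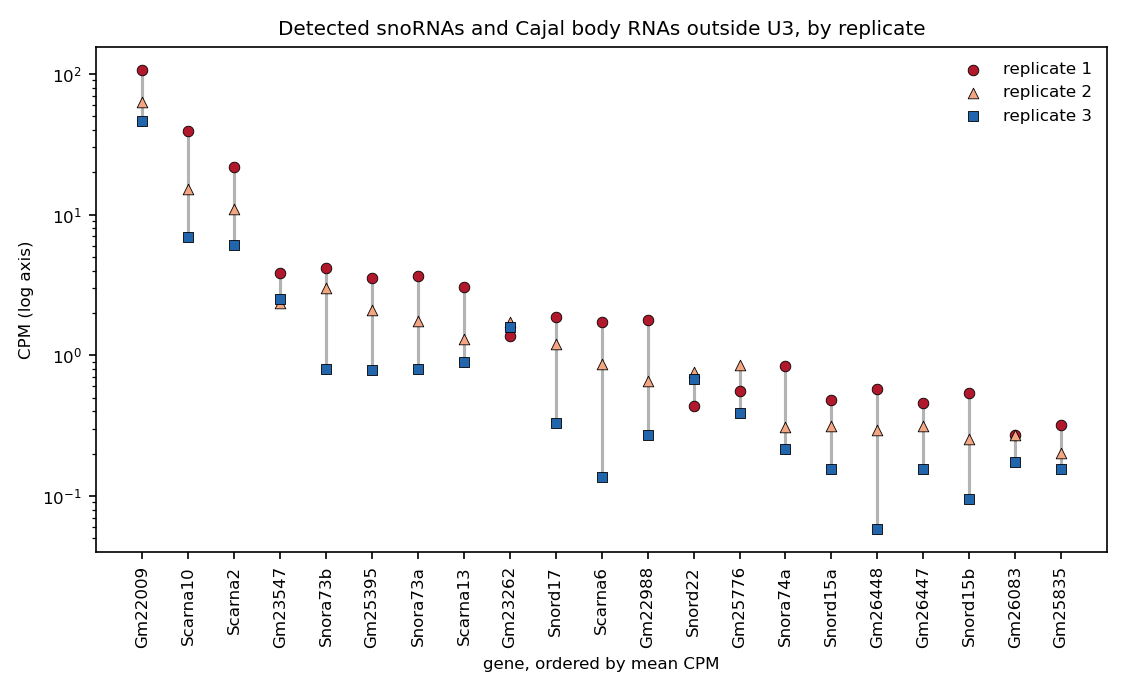
CPM (y axis, log scale) of the 21 detected genes outside U3 in each of the 3 replicates, ordered by mean CPM along the x axis. Circles are replicate 1, triangles replicate 2 and squares replicate 3, and replicate 1 is the highest point for 17 of the 21 genes.

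Over all members, 27 of 31 were called as varying between replicates at an adjusted p of 0.05, and 17 of the 21 outside U3. Without replicate 1 the latter count was 11 of 21, against 52.9% of all genes tested without it. The calls of Gm23547, Scarna13, Snora74a, Snord15a, Snord15b and Gm26447 were then lost. With the posterior variance added 18 of the 31 were called, against 68.0% of all genes. The background was high: of all 13823 genes whose mean count reached 10, 70.1% were called by the same test with every replicate. Small nuclear RNA (snRNA) genes, the short spliceosomal RNAs that scaRNAs modify, were called in 18 of 26 cases. The size of the spread was above that over all genes tested. The median biological coefficient of variation of a gene, estimated by edgeR, was 0.509 over the members and 0.484 outside U3. It was 0.164 over all genes tested and 0.285 over the 26 snRNA genes. The members' counts were lower, with a median mean count of 46.3 against 700 over all genes and 109 over the snRNA genes. The coefficients of variation of Gm22009, Scarna10 and Scarna2, which had at least 311 counts in every library, were 0.283, 0.524 and 0.408.

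The spread had a direction. Replicate 1 was the highest for 21 of the 31 members and 17 of the 21 outside U3, against 34.4% of all genes tested. Replicate 3 was the lowest for 18 of the 21 outside U3, against 36.8% of all genes. The full order, replicate 1 above 2 above 3, held for 16 of the 21, against 20.1% of all genes. The median difference between replicates 1 and 3 in log2(CPM + 0.5) was 0.95 outside U3 and 0.01 over all genes. For the 26 snRNA genes it was -0.12, and 21 of them were highest in replicate 2 and 1 in replicate 1. Since the members were chosen by their mean, a high replicate 1 could lift a gene over the threshold: without replicate 1, 24 of the 31 had a mean of at least 10. The 7 that did not were the 4 Rnu3b entries of 215 bases, Gm26448, Snord15b and Gm25835.

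The 5 RNAs listed as nuclear, like most members, were highest in replicate 1. The sum of the U3 entries and 21 of the 26 snRNA genes were highest in replicate 2. Malat1, a long non-coding RNA of nuclear speckles, stood at 6065, 3077 and 1408 CPM in replicates 1, 2 and 3. Neat1, the scaffold of paraspeckles, stood at 647, 247 and 126 CPM, and Gm26917 at 3854, 1876 and 397 CPM. With Xist and Kcnq1ot1, all 5 nuclear RNAs listed were called and highest in replicate 1 (median log2 difference between replicates 1 and 3 of 3.16), and their summed TPM was 2297, 838 and 382. Kcnq1ot1 is antisense to Kcnq1, and its reads could not be told from those of that gene without a strand setting. The part of nuclear RNA in the members' spread was not tested. Rn7sk, Rpph1 and Rmrp, abundant short non-coding RNAs, were highest in replicate 2 and lowest in replicate 3, and their log2 differences between replicates 1 and 3 were 0.86, 0.81 and 0.52. Terc, the H/ACA RNA of telomerase, had 19, 25 and 33 counts. The cell type matched the label: all 10 macrophage markers were expressed (median TPM 446), and the 14 markers of T and NK cells, B cells, fibroblasts and erythroid cells had at most 0.0433 TPM on average. Of the neutrophil markers, S100a9 and S100a8 had 5.41 and 3.8 TPM, and Ly6g was listed at 0.

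U3 is an abundant box C/D RNA of the nucleolus and is needed for early cleavage of the ribosomal RNA precursor. Its 10 entries behaved unlike the rest. The 4 Rnu3b genes have identical sequences and lie in introns of Tex14, each annotated as 2 entries, of 216 and 215 bases, that differ by the last base. Rnu3a is annotated likewise with 214 and 213 bases and shares 85.4% of its aligned bases with Rnu3b1. Every 216-base Rnu3b entry had 25.4, 84.8 and 38.9 counts, and every 215-base entry 41.3, 0 and 15.9. The 214-base Rnu3a entry had 0, 48.9 and 40.1 counts and the 213-base entry 16.0, 0.150 and 27.9. The counts thus moved between entries of 1 locus from replicate to replicate, and a level of a single entry cannot be read.

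The deposited posterior SD of the count shows the same limit. It exceeded the counting SD, the square root of the count, in 10 of the 31 members, and these were the 10 U3 entries. The mean ratio of posterior SD to counting SD (with the counting SD set to at least 1) ran from 3.15 for the 214-base Rnu3a entry to 11.4 for the 215-base Rnu3b1 entry. For the 21 other members it was at most 0.184. For example, the 216-base Rnu3b1 entry had posterior SDs of 24.8, 51.1 and 22.3 beside its counts of 25.4, 84.8 and 38.9. Gm22009, Scarna2, Scarna13, Scarna6, Gm25395 and Snord17 had a posterior SD of 0 in each replicate. By this measure the assignment of their reads to the gene was not in doubt.

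**Figure D3:**
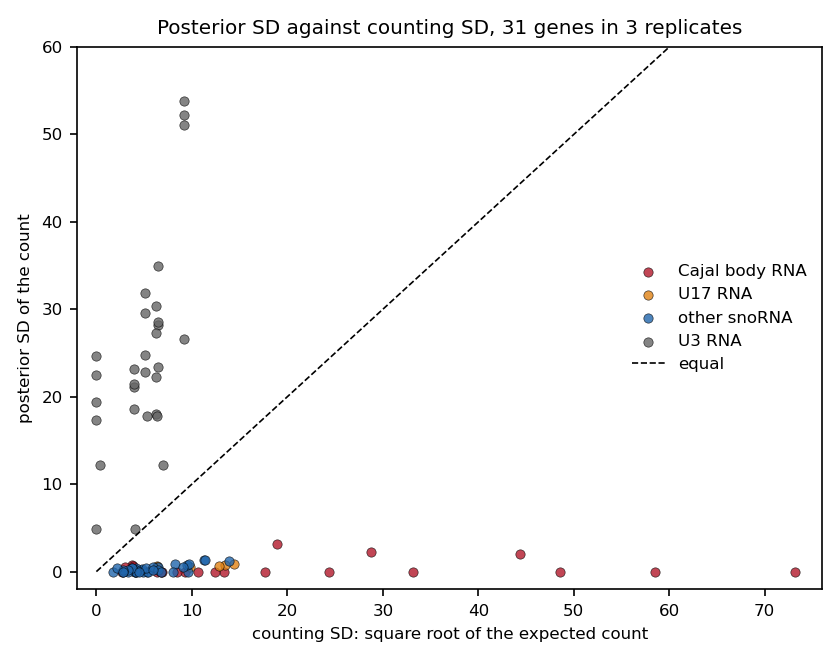
Posterior SD of the expected count (y axis, counts) against the counting SD (x axis, square root of the expected count) for 31 genes in 3 replicates, with a dashed line of equality. The gray U3 points lie above or near the line and all others near 0, with ratios of at most 0.184 outside U3.

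The 10 U3 entries summed to 283, 388 and 287 counts, or 5.65, 7.14 and 5.596 CPM, a 1.28-fold range between the highest and the lowest replicate. The sum still varied beyond counting noise (adjusted p = 0.00231 by the Poisson heterogeneity test), with replicate 2 the highest. By these gene table counts replicates 1 and 3 differed by 1.01-fold, against 2.89-fold for the Cajal body RNAs, 4.90-fold for U17 and 1.97-fold for the other 12. Whether the families differ was not tested.

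The second deposited transcript table, in kallisto's layout, gave close counts outside U3. The ratio of its mean count to the gene table's ran from 0.945 for Gm22988 to 1.86 for Gm25835, with a median of 1.09 over the 21. Within U3 it put 0 counts on the 4 Rnu3b entries of 215 bases, 124, 163 and 91.4 on each 216-base entry, and 92.5, 127 and 104 on the 214-base Rnu3a entry. The U3 sum was then 588, 778 and 470 counts, 1.92 times the gene table's, with a 1.49-fold range in CPM between replicates 2 and 3. Replicate 1 exceeded replicate 3 by 1.21-fold there, against 2.71-fold for the Cajal body RNAs, 4.54-fold for U17 and 1.79-fold for the other 12. In that layout 43 genes had a mean of at least 10, and 26 of them were members. The 17 others included Snord89, Snord118, Snora31 and Snord104, with means of 21.7, 14, 10.7 and 10.3, and were led by Gm24339, 76 bases long, with 166, 51 and 28 counts. Of the 17, 10 were listed at 0 in all 3 gene tables, and 16 were highest in replicate 1. These were chosen by their mean in that layout, so a high replicate 1 could lift a gene over 10. Gm24500, with 34, 7 and 3 counts, is an example, and the order of replicates in the 17 is not read further.

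**Figure D4:**
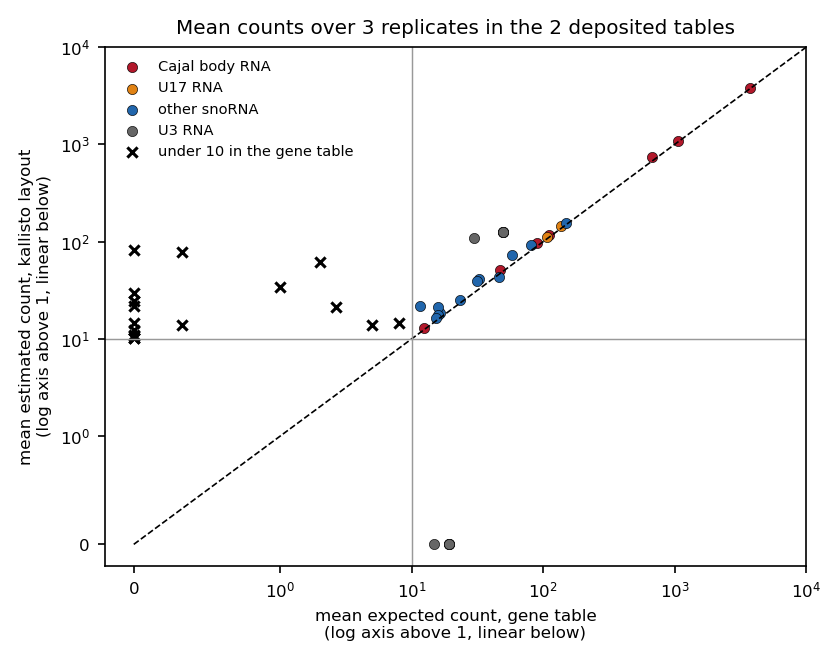
Mean count over 3 replicates in the kallisto-layout table (y axis) against the gene table (x axis), on axes that are logarithmic above 1 and linear below, with gray lines at 10 and a dashed line of equality. Members outside U3 lie along the line, U3 entries lie off it, and crosses mark the 17 genes that reach 10 in the kallisto-layout table alone.

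Nearly all members lie inside other genes. A host here is a coding or long non-coding gene that spans the member on its strand, and 28 of the 31 had one, the exceptions being Scarna2 and the Rnu3a pair. Outside U3, 20 of 21 had a host. The share with a host among all 1558 annotated genes was not determined. Where 2 genes span a member, 1 was used: Rcc1 for both U17 genes, which also lie in the non-coding Snhg3, and AC121821.1 for Snora74a, which also lies in Gm28285. By that choice there were 16 distinct hosts, with 16 members in coding genes and 4 in non-coding ones. Several coding hosts belong to translation: Eif4a1 (Gm22988 and Gm25835), Eif4a2 (Gm26447), Eif4g2 (Gm23262), Rps3 (Snord15a and Snord15b) and Rpsa (Gm26448). Others were Kpna4 (Gm22009), an importin gene, Ncapd2 (Scarna10), a condensin gene, Rcc1 (U17), Phb2 (Gm23547), Snx5 (Snord17), Gtf2a1 (Gm25776) and the autophagy gene Atg16l1 (Gm25395 and Scarna6). The non-coding hosts were Snhg10 (Scarna13), Snhg1 (Snord22), Snhg20 (Gm26083) and AC121821.1 (Snora74a). Of these 20 members, 10 overlapped no exon of any host transcript. Another 10 overlapped an exon of some transcript, often one of type retained intron, where reads of the host could count as the member or the reverse. Reads of unspliced host RNA could also fall on the members without exon overlap, which was not tested. The microRNA genes Mir3069, Mir6516 and Gm49347 overlap Scarna13, Gm26083 and Snora74a, in that order, and reads of each pair share those bases.

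The members' levels per annotated length ranged widely against their hosts' levels per deposited gene length. The host length of replicate 1 was used for every replicate. Scarna10 stood 30.5-fold above Ncapd2 in mean CPM per kilobase, with 55.4-fold, 20.9-fold and 12.1-fold in replicates 1, 2 and 3 and 16.99-fold without replicate 1. By the same means Scarna13 stood 15.9-fold above Snhg10 and Gm22009 8.48-fold above Kpna4. The ratio was over 1 for 7 of the 20, with a median of 0.327. The lowest was Gm25835, at 0.00599 of Eif4a1. Annotated length sets short members low, because few positions are open to their fragments. Gm25835, 144 bases long, had effective lengths of 2.72, 3.36 and 4.93 in replicates 1, 2 and 3. By deposited TPM it stood at 82.7, 32.2 and 23.3, still below Eif4a1 at 214.57, 148.19 and 223.16. Gm25776, at 153, 142 and 61.3 TPM, stood above its host Gtf2a1 at 25.25, 16.77 and 30.04. Kpna4 itself had 5292, 5088 and 6254 counts, so Gm22009 with 5350, 3418 and 2363 counts matched its whole host in replicate 1 and had 37.8% of its host's counts in replicate 3.

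Of the 16 hosts compared, 5 were highest in replicate 1: Rpsa, the only one of the 12 coding hosts, and all 4 non-coding hosts. The order of replicate 1 above 2 above 3 held for 4 of the 16, namely Rpsa, Snhg10, Snhg20 and AC121821.1. Taken once per member, the hosts' median log2 difference between replicates 1 and 3 was -0.02, against 0.92 for the 20 members inside them, and the member's difference was above its host's in 16 of 20. Atg16l1 had 1223, 1415 and 1474 counts, lowest in replicate 1, while Gm25395 and Scarna6 within it were highest there. Rcc1 had 355, 437 and 377 counts and Snhg3, the other gene over the U17 pair, 66.0, 81.5 and 109, while Snora73a and Snora73b were 1.68 and 1.85 higher in replicate 1 than in replicate 3 on the log2(CPM + 0.5) scale. The exceptions were Snord22 in Snhg1, Gm26083 in Snhg20, Snora74a in AC121821.1 and Gm23262 in Eif4g2. Snhg1 had 296, 173 and 172 counts and was highest in replicate 1, where Snord22 was lowest by CPM.

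**Figure D5:**
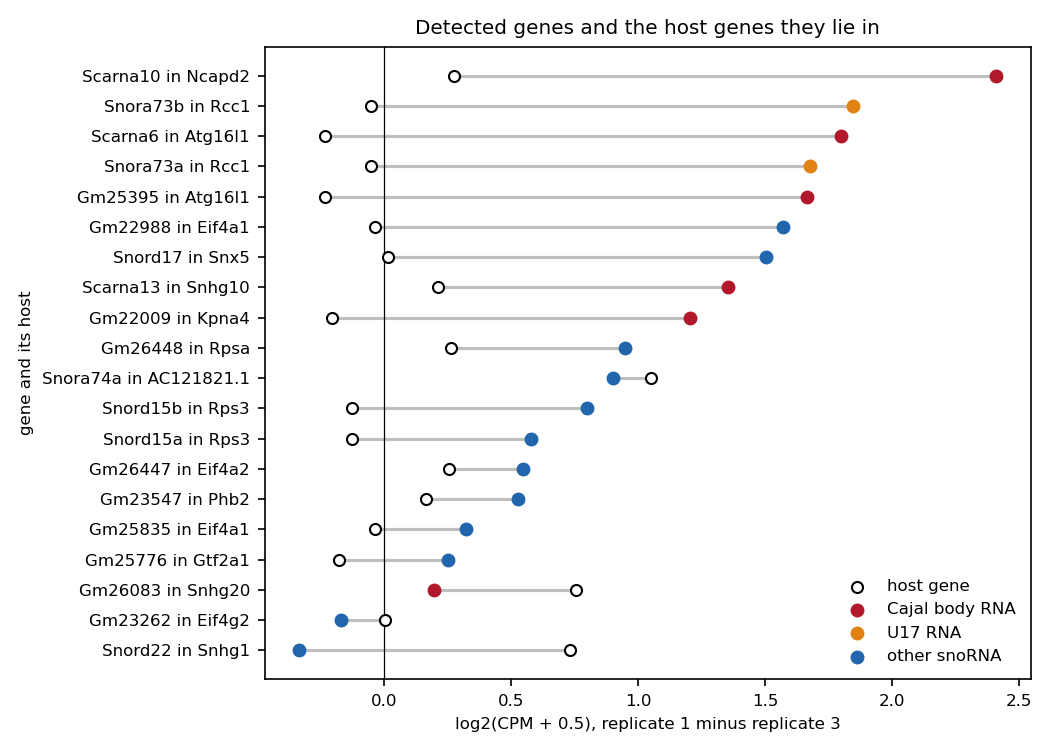
Difference in log2(CPM + 0.5) between replicates 1 and 3 (x axis) for 20 members outside U3 (filled points) and the host gene each lies in (open points), 1 row per pair. The member lies right of its host in 16 of 20 rows, and the hosts lie between -0.23 and 1.05.

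The sequence boxes followed the symbols. A C box (TGATGA) together with a D box (CTGA) in the last 15 bases was found on the transcript strand in 20 of the 31 members, against 22.9% of all 1558 annotated genes. Those 20 are the 10 U3 entries, 3 of 4 Snord, 3 of 4 Scarna and 4 of 10 Gm members. Snord22, shown above, had the D box but no exact TGATGA. An ACA ending 2 to 5 bases before the 3′ end was found in all 3 Snora members, and with an H box in 6 of the 31 members, against 37.9% of all annotated genes. Among the predicted genes, Gm26448, Gm26083, Gm22988 and Gm25776 held both H and ACA boxes, and Gm22009, Gm23547, Gm25395 and Gm25835 held C and D boxes. A match is a match of letters, and H boxes of 3 fixed letters occurred in 77.3% of all annotated genes.

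The proteins of the pathway were described from lists, whose counts of calls stand against 70.1% called and 34.4% highest in replicate 1 over all genes tested. All 4 core proteins of box C/D particles were called by the Poisson heterogeneity test, Snu13 with 15.1, Nop56 with 14.4 and Fbl, the methyltransferase, with 11.7 TPM, and 3 of the 4 were highest in replicate 2. Of the 4 H/ACA core proteins 3 were called, led by Nhp2 (13.5 TPM) and Nop10 (5.38 TPM), with the pseudouridine synthase Dkc1 lowest (1.58 TPM). Dkc1 had 290, 308 and 199 counts. Among 11 assembly factors, 3 were called: Tgs1, the cap hypermethylase, and Pih1d1, both highest in replicate 3, and Phax, highest in replicate 2. Of 6 Cajal body proteins 2 were called, Smn1 with 534, 516 and 417 counts and Gemin4 with 221, 270 and 178, while coilin (Coil) had 334, 397 and 352 counts (adjusted p = 0.482, same test).

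Enzymes that trim and debranch snoRNA precursors were called in 3 of 10 cases, 1 highest in each replicate. Xrn2, a nuclear exonuclease, led them with 26.4 TPM, followed by Exosc10 with 12.8, and Dis3 was the lowest with 1.66. Of 19 genes known to host snoRNAs, 15 were called, against 70.1% of all genes, 8 of them highest in replicate 1, 2 in replicate 2 and 5 in replicate 3. They were led by Hspa8 (602 TPM) and Eif4a1 (195 TPM), and Snhg17 was the lowest (1.02 TPM). Median log2 differences between replicates 1 and 3 were 0.26 for box C/D core, 0.39 for H/ACA core, 0.04 for assembly, 0.19 for Cajal body, 0.05 for trimming and 0.26 for host genes, all below the 0.95 of the members outside U3.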

How the data were processed

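Per the labels, total RNA of the cytosolic fraction was sequenced in 3 libraries of 1 group. Per the deposited notes, the assembly was mm10 with the GENCODE M21 annotation. No quantifier, aligner or strand setting is named in the sources used here. The authors deposited a gene table per library with an expected count per gene, unnormalized and not always whole, TPM, and a posterior mean and SD of each count (a signal in units of reads), and a transcript table in kallisto's layout with estimated counts and TPM. For tests, each expected count was rounded to the nearest whole number. Entries that name no gene (transfer RNAs, spike-ins and phiX) stayed out of library sizes and took 0.0785%, 0.0521% and 0.0251% of the counts in replicates 1, 2 and 3.

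Members are genes with a snoRNA or scaRNA transcript and a mean expected count of at least 10. The members, lists and tests were chosen with earlier results of these data known. CPM used TMM-scaled library sizes from edgeR 4.0.16 in R 4.3.3 (factors 1.04, 0.998 and 0.959). With 1 group there was no contrast. Each of 13823 genes was tested for a Poisson chi-square heterogeneity between replicates (2 degrees of freedom, scipy 1.17.1), with Benjamini-Hochberg adjustment over all of them at 0.05. The test was tested on simulated Poisson counts with folds set in some genes. Spread between libraries beyond counting noise was not simulated in the other genes. It measures spread between libraries, which may be technical. Wilson intervals cover counting error only, and each library's total count sets the precision. Folds between replicates use CPM + 0.5 for single genes and plain CPM for sums of genes. C boxes (TGATGA), D boxes (CTGA in the last 15 bases), H boxes (ANANNA, limited to 35 to 65% of the length after the first look at the data) and ACA were searched on the transcript strand. Named genes are the Scarna members, the 10 highest by CPM, the highest and lowest of each class, the 5 nearest each side of the threshold, the 5 widest and 5 narrowest ranges at a mean count of 50 or more, the 5 largest posterior SD ratios, the U3, U8, U13, U14, U17 and U22 families, hosts of named members and list genes. Other members are named to account for all 31. Alternatives covered the scaling (DESeq2 1.42.0 size factors, total or protein-coding counts), thresholds, the kallisto-layout table, posterior variance, pseudocounts and leaving out each replicate. Papd5, Skiv2l2 and Snhg16 matched no symbol in the annotation.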

Additional observations from a re-analysis of the deposited data

How the results depend on the processing

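The number of members fell from 31 to 20 at a mean count of at least 20 and to 18 where each replicate had to reach 10, and ranged from 24 to 31 when a replicate was left out. It was 43 with the kallisto-layout table. The number called as varying was 27 under every scaling tried, and ranged from 20 to 23 when a replicate was left out. It was 9 of 10 members at a mean count of at least 50, and 18 with the posterior variance added, which ended the calls of 9 of the 10 U3 entries and of no other member. Without the U3 entries, an alternative added after seeing the data, it was 17 of 21, and with them summed into 1 entry 18 of 22. Without replicate 1, 11 of the 21 outside U3 were called, and the calls lost included Gm23547, Scarna13 and Snora74a. Without a filter on low counts, the call of Gm26447 was lost. The number highest in replicate 1 lay between 17 (of 27 with counts in the kallisto-layout table) and 23 (deposited TPM), but under total counts the share of all genes highest there rose to 48.6%, under protein-coding counts to 44.4%. Those scalings moved every log2 difference between replicates 1 and 3 by 0.12 and 0.15. Hosts overlapped by no exon held 18 of the 28 members inside a host, U3 included. The number of members with a posterior SD above the counting SD was 10 under each alternative. No paired analysis was possible because there is 1 group. Depth limits genes under about 10 counts, and DESeq2 as a test was not run because it needs a contrast.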
